A study of Homo sapiens with 12 samples.

Results

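The data describe 6 long stretches of the genome in which BxPC3 and SUIT2 cells carried H3K27ac peaks and Panc327 cells carried none. The stretches were chosen from these same peak lists, as runs of at least 10 regions called in both BxPC3 and SUIT2 with no Panc327 peak between them. The absence of Panc327 peaks is therefore how they were selected, and it is described here without a test. On hg19 they span chromosome X from 13000661 to 13508298, chromosome 5 from 58330503 to 59096126, chromosome 7 from 46017031 to 47013146, chromosome 8 from 29316096 to 29598082 on its short arm and from 122156760 to 123583016 on its long arm, and chromosome 4 from 10657198 to 11704089. Together they cover 5.02 Mb and hold 552 of the 190767 peaks of the series, or 194 of its 58994 merged regions.

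The study profiled H3K27ac by chromatin immunoprecipitation and sequencing in 3 human pancreatic ductal adenocarcinoma lines, BxPC3, Panc327 and SUIT2. All were untreated and kept under ordinary culture conditions, with 2 H3K27ac and 2 input libraries per line. Each group is a single cell line, and nothing in the labels says that the libraries of a line came from separate cultures, so every spread given here may be technical. With 2 libraries against 2, the smallest exact two-sided permutation p is 0.333, so values of both libraries are given side by side and no test between lines was made.

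H3K27ac is the acetylation of lysine 27 of histone H3. It is laid down by the acetyltransferases p300 and CBP at active promoters and enhancers, and it is absent from the same elements when they are off. Enhancers often lie in clusters in large non-coding intervals around developmental and matrix genes, so a whole interval can be marked in one cell type and bare in another. No genome or gene annotation of hg19 was used here, so no peak is assigned to a gene. By general knowledge of the gene map, the stretch on chromosome X follows TMSB4X, the gene of an actin-binding thymosin, and precedes EGFL6, which encodes a secreted EGF-like protein. The stretch on chromosome 5 lies within PDE4D, a cAMP phosphodiesterase gene with many alternative promoters. The chromosome 7 stretch lies in the gene-poor interval between IGFBP3, a binding protein of insulin-like growth factors, and TNS3, a focal adhesion protein. The short-arm stretch of chromosome 8 lies beside DUSP4, a phosphatase of MAP kinases. The long-arm stretch surrounds HAS2, a hyaluronan synthase, and the chromosome 4 stretch surrounds HS3ST1, a heparan sulphate sulphotransferase. In the order of RefSeq genes (GRCh38.p14, used for names and neighbours only), FAM9C and ATXN3L are the 2 protein-coding genes between TMSB4X and EGFL6. HAS2 is the 1 such gene between SNTB1 and ZHX2, HS3ST1 is the 1 between CLNK and RAB28, and there are 0 between IGFBP3 and TNS3.

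Peaks had been called separately in each library. BxPC3 replicates 1 and 2 had 156 and 162 peaks in the stretches, SUIT2 replicates 1 and 2 had 118 and 116, and both Panc327 libraries had 0. The peaks covered 216.7 and 247.2 kb in BxPC3 and 271.8 and 288.3 kb in SUIT2. SUIT2 thus had fewer peaks and more covered bases: its median peak in the stretches was 1389 and 1634 bp wide, against 889 and 1114.5 bp in BxPC3. Over their whole lists, SUIT2 peaks were also the wider, with medians of 1504 and 1481 bp against 1070 and 1030 bp.

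**Figure D1:**
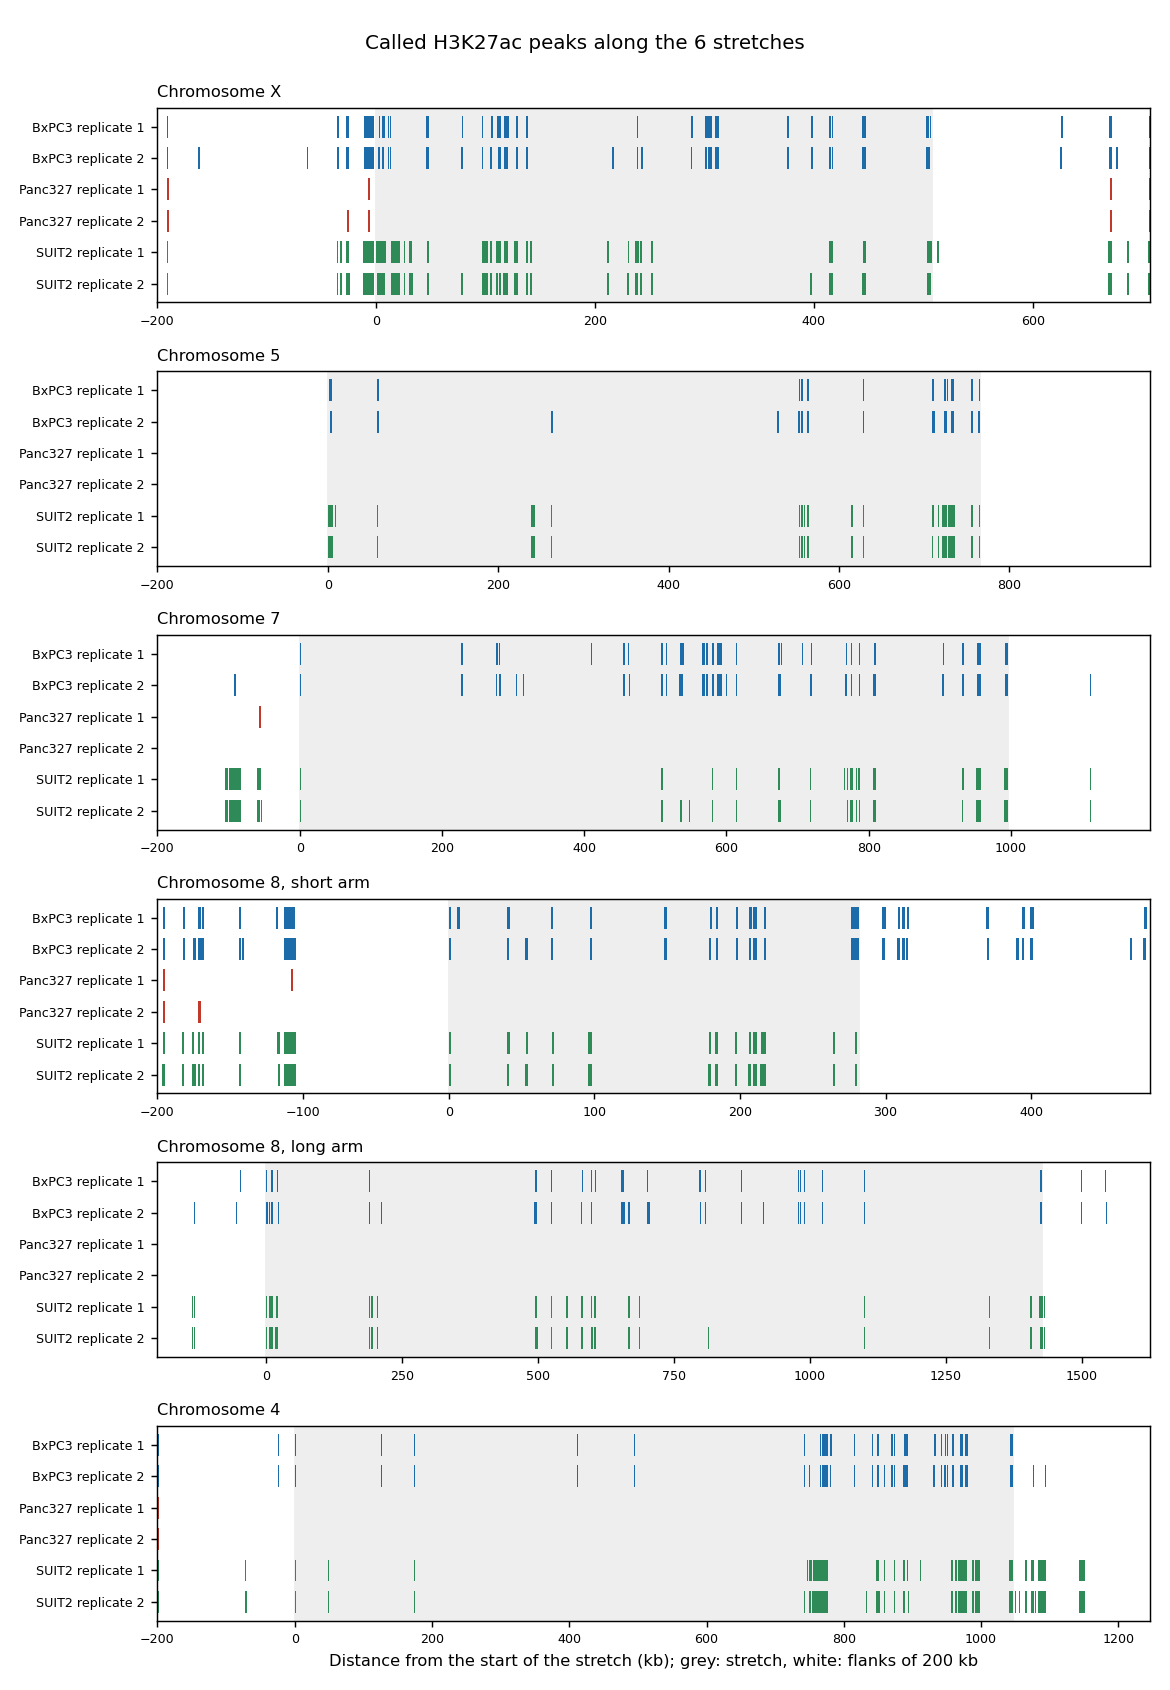
Called H3K27ac peaks of each library (rows) along the 6 stretches (panels), with the distance from the start of the stretch in kb on the x axis. Bars are peaks, drawn at least 1.5 kb wide so that they can be seen; the grey band is the stretch and the white margins are its flanks of 200 kb. BxPC3 (blue) and SUIT2 (green) have bars in every grey band and Panc327 (red) has 0, and the flanks of the chromosome 5 stretch are empty in all 6 libraries.

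Merging peaks that share at least 1 bp gave the 194 regions, and a line counts as marking a region where its 2 libraries each gave a peak. Of these, 66 were marked in both BxPC3 and SUIT2: 12 on chromosome X, 11 each on chromosomes 5 and 7 and on both arms of chromosome 8, and 10 on chromosome 4. Across the series, 16806 regions were marked in both lines and 14.7% of them had no Panc327 peak in either library. The rule used this contrast, so nothing is read from the members' share. A further 56 regions were marked in BxPC3 with no SUIT2 peak and 31 in SUIT2 with no BxPC3 peak. The BxPC3 lists are the longer, and with the same number of top peaks taken from each list both counts were 40. Another 10 were marked in one line and had a peak in 1 library of the other, and 31 rested on single libraries.

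The rule kept the longest of many such runs. Of the runs of neighbouring regions marked in both other lines and free of Panc327 peaks, 1445 held 1 region, 252 held 2 and 78 held 3. Just inside the minimum of 10 lies the chromosome 4 stretch with 10 regions. Just outside it are a run of 9 regions on chromosome 6 from 139853903 to 141875853 and a run of 8 on chromosome 12 from 93380875 to 93711938.

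The stretches differed in how much of them BxPC3 and SUIT2 held alone. Across the series, 40.7% of the regions marked in BxPC3 had no SUIT2 peak, and 33.7% of those marked in SUIT2 had no BxPC3 peak. In the 6 stretches together these shares were 44.8% (56 of 125 regions) and 29.8% (31 of 104), near those of the series. On chromosome 5, 0 of the 11 BxPC3 regions lacked a SUIT2 peak, while 5 of 17 SUIT2 regions lacked a BxPC3 peak. On chromosome 7 the balance was the other way, with 14 of 27 BxPC3 regions and 2 of 14 SUIT2 regions held alone. The short-arm stretch of chromosome 8 was the most alike, with 2 of 13 and 2 of 14. On the long arm the numbers were 17 of 28 and 7 of 19, on chromosome 4 they were 12 of 23 and 7 of 19, and on chromosome X 11 of 23 and 8 of 21. The rule asked for regions marked in both lines, so these shares are not independent of it.

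Strength was described in 2 ways. The percentile of a peak is its rank by the authors' −log10 q within its own list, 100 being the strongest. The height is the read pile-up at the peak, recovered from the authors' fold and −log10 p, divided by the genome-wide background of the library. Heights of the lines were not on one scale at high rank. In replicate 1, a BxPC3 peak at percentile 87.3 had a height of 70.8, and a SUIT2 peak at 88.5 had 117.9. At percentiles 97.7 and 97.4, the heights were 114.1 in BxPC3 and 185.3 in SUIT2. A greater height in SUIT2 is therefore not by itself a higher rank. The 66 regions marked in both lines had a median percentile, averaged over the 4 libraries, of 55.5, and ranged from 18.8 to 90.6. All 16806 such regions of the series had a median of 71.7, and the 2468 without a Panc327 peak had 43.1. The regions of the stretches were thus of middle rank, and a few were among the strong peaks of both lines.

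The strongest was on chromosome 4 from 11414364 to 11434202, in the stretch around HS3ST1. It was also the widest region of all 6 stretches, at 19.8 kb. Its height was 64.3 and 62.2 times the background in BxPC3 replicates 1 and 2, and 194.5 and 180.3 times in SUIT2. Both SUIT2 libraries lay above both BxPC3 libraries, at percentiles 97.95 and 98.5 against 83.6 and 82.1. The widest single peak within it was 17.8 and 19.2 kb in the SUIT2 libraries, and the widest BxPC3 peaks of this stretch were 8.16 and 8.99 kb. The second region of the stretch, from 11697649 to 11704089 at its distal end, showed the same order, with heights of 51.3 and 43.2 in BxPC3 and 146.1 and 150.4 in SUIT2. The third, from 10830500 to 10831480, was 981 bp wide and had heights of 41.7 and 46.8 in BxPC3 and 67.5 and 66.2 in SUIT2. Its percentiles overlapped, at 62.5 and 74.04 in BxPC3 and 72.8 and 71.7 in SUIT2. SUIT2 alone marked a region from 11649040 to 11653560, picked after its values were seen, with heights of 144.6 and 144.0. Long parts of the interval were bare in the marked lines too: the longest gap between peaks inside the stretch was 247.1 kb in BxPC3 and 567.6 kb in SUIT2.

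On the long arm of chromosome 8, in the stretch around HAS2, the strongest region ran from 122650125 to 122655906. Its height was 73.1 and 86.1 times the background in BxPC3 and 125.8 and 116.9 times in SUIT2. Both SUIT2 libraries were above both BxPC3 libraries in rank as well, at percentiles 88.9 and 89.2 against 82.1 and 87.8. The next region, 122162777 to 122168912, was the widest of this stretch at 6136 bp and had heights of 39.4 and 40.2 in BxPC3 and 96.3 and 91.4 in SUIT2. The region from 122754012 to 122756890 had heights of 38.3 and 50.3 in BxPC3 and 64.7 and 70.9 in SUIT2, with percentiles that overlapped (62.7 and 73.7 against 66.5 and 74.5). This was the longest of the 6 stretches, at 1.43 Mb, and it held the most regions marked in BxPC3 alone. One of these, from 123029769 to 123031362 and picked after its values were seen, had heights of 64.0 and 67.4.

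The chromosome 7 stretch held 2 strong regions near its distal end. The region from 47007163 to 47013146 had heights of 76.2 and 86.4 times the background in BxPC3 and 134.9 in both SUIT2 libraries, but its percentiles overlapped, at 81.1 and 90.01 in BxPC3 and 88.99 and 94.3 in SUIT2. The region from 46967496 to 46975500, 8005 bp wide and the widest of the stretch, had heights of 82.0 and 78.4 in BxPC3 and 126.7 and 114.4 in SUIT2. The third region, 46689361 to 46693913, was the stronger in BxPC3, with heights of 78.5 and 99.6 against 51.3 and 47.4 in SUIT2. This stretch was richer in BxPC3 than in SUIT2: 31 and 37 peaks against 16 and 17, covering 57.4 and 64.0 kb against 35.5 and 40.1 kb. BxPC3 alone also marked a region of 6802 bp from 46604009 to 46610810, picked after its values were seen, with heights of 70.8 and 79.5. SUIT2 had no peak over an interval of 505.6 kb in this stretch, and the longest such gap in BxPC3 was 225.4 kb.

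On chromosome 5, the stretch within PDE4D carried 20 regions over 765.6 kb, and 11 of them were marked in both lines. The strongest lay from 59061152 to 59066351, with heights of 59.4 and 79.8 times the background in BxPC3 and 117.9 and 121.6 in SUIT2. Its neighbour from 59050908 to 59057716 was the widest of the stretch at 6809 bp and had heights of 26.8 and 28.3 in BxPC3 and 62.9 and 63.7 in SUIT2. The region that opens the stretch, 58330503 to 58336291, had heights of 33.3 and 30.3 in BxPC3 and 77.5 and 72.6 in SUIT2. In all 3 the SUIT2 libraries were the higher on this scale, but at the strongest the percentiles overlapped, at 80.8 and 89.3 in BxPC3 and 88.5 and 91.4 in SUIT2.

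The short-arm stretch of chromosome 8, beside DUSP4, was the shortest, at 282.0 kb. Its strongest region, 29524916 to 29528059, had heights of 70.5 and 75.4 times the background in BxPC3 and 63.5 and 62.6 in SUIT2, at percentiles 86.0 and 86.9 against 70.9 and 72.3. The region from 29356336 to 29357870 had heights of 54.4 and 62.4 in BxPC3 and 40.7 and 31.0 in SUIT2. The third, 29521865 to 29523866, had heights of 41.7 and 44.3 in BxPC3 and 50.1 and 53.2 in SUIT2, with overlapping percentiles (59.8 and 66.5 against 64.3 and 67.9). The widest region of this stretch closed it, from 29594057 to 29598082, and was the stronger in BxPC3, with heights of 62.0 and 81.1 in BxPC3 and 15.5 and 14.7 in SUIT2.

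On chromosome X the strongest region, 13414458 to 13418514, had heights of 35.2 and 38.8 times the background in BxPC3 and 77.2 and 72.3 in SUIT2. The region that closes the stretch, 13502896 to 13508298, had heights of 32.2 and 37.4 in BxPC3 and 58.3 and 65.9 in SUIT2. The region that opens it, 13000661 to 13009244, was the widest at 8584 bp and had heights of 22.6 and 31.6 in BxPC3 and 74.1 and 72.0 in SUIT2. By height, both SUIT2 libraries were above both BxPC3 libraries at each of the 3, while the percentiles of the closing region overlapped, at 61.2 and 68.0 in BxPC3 and 66.9 and 68.9 in SUIT2. SUIT2 alone marked a region of 7670 bp from 13014382 to 13022051, picked after its values were seen, with heights of 89.3 and 92.5. Peaks covered 12.02 and 12.4% of this stretch in SUIT2, the most of any stretch and library, and 7.14 and 8.49% in BxPC3.

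Counted over the 66 regions, 24 had a higher percentile in both BxPC3 libraries than in both SUIT2 libraries, 29 had the reverse, and 13 overlapped. Over the series the first pattern held for 44.6% and the second for 35.3% of the regions marked in both lines. BxPC3 ranked the higher at 7 of 11 regions on the short arm of chromosome 8, 6 of 11 on chromosome 7 and 5 of 10 on chromosome 4. SUIT2 ranked the higher at 8 of 12 on chromosome X and at 6 of 11 on chromosome 5 and on the long arm of chromosome 8.

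**Figure D2:**
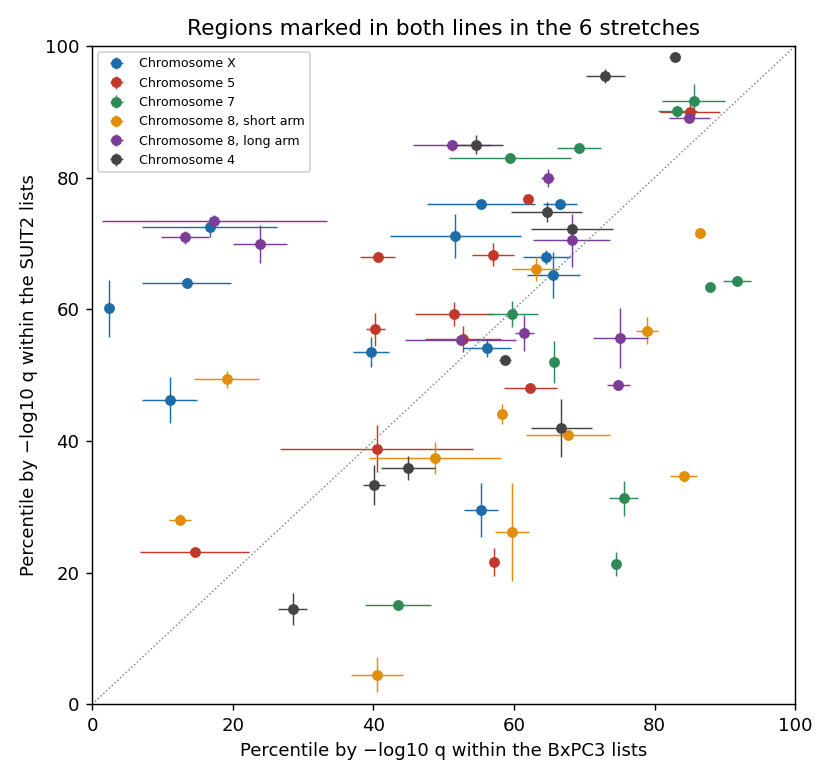
The 66 regions marked in both BxPC3 and SUIT2, each at its mean percentile by −log10 q within the BxPC3 lists (x axis) and the SUIT2 lists (y axis); bars run from replicate 1 to replicate 2 and colours give the stretch. Points above the dotted line of equal rank, such as most of chromosome X, ranked higher in SUIT2, and points below it, such as most of the short arm of chromosome 8, ranked higher in BxPC3.

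The lines also differed in where within a shared region the signal peaked. In the 66 regions, the summits of the strongest peaks were a median of 51 bp apart between the BxPC3 libraries and 49.5 bp apart between the SUIT2 libraries. Between a BxPC3 and a SUIT2 library the median distance was 102 to 136 bp, over the 4 pairs. Over all regions marked in both lines the medians were 39 and 33 bp within lines and 51 to 56 bp between them. The summits of both lines lay within 100 bp of each other in 29 to 33 of the 66 regions (43.9 to 50%), by pair of libraries, against 64.8 to 66.4% of all such regions. Within lines the count was 51 of 66 in BxPC3 (77.3%) and 48 of 66 in SUIT2 (72.7%), against 78.6% and 81.4% of all such regions. The SUIT2 libraries thus also matched each other less often here than over the series. The covered bases of BxPC3 and SUIT2 overlapped with a Jaccard index (shared over total length) of 0.312 to 0.344 in the stretches and 0.385 to 0.399 in the series. The shared regions of the stretches were weaker than those of the series, and wider, with a median of 3160.5 against 2621 bp. Whether strength or width plays a part in these distances was not tested.

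The depth of the Panc327 libraries sets what could have been called there. The weakest peak called in Panc327 replicate 1 rested on 14 reads, a height of 9.60 times its background, and in replicate 2 on 19 reads, a height of 6.66. Of the 66 regions, 61 exceeded 9.60 times the background in all 4 BxPC3 and SUIT2 libraries. The rule asked for a peak in each of these 4. Their weakest called peaks had heights of 8.42 and 7.43 in BxPC3 and 6.08 and 5.82 in SUIT2. Most of that count was therefore set by the rule. The median Panc327 peak had a height of 46.6 in replicate 1 and 19.3 in replicate 2, and 7 and 40 of the 66 regions exceeded those in all 4 libraries. Such counts were not made over the series, so nothing is read from them about the missing Panc327 peaks. Heights depend on the enrichment of each library as well as on its depth, and a region with fewer reads than the weakest called peak in Panc327 would not be seen. Where the local background is higher than at that peak, more reads were needed for a call. No peak therefore means that no signal passed the peak caller's threshold there, and not that the mark was absent.

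Over the series, strong regions of BxPC3 and SUIT2 seldom lacked a Panc327 peak, and weak ones often did. Of the regions marked in both other lines with a mean percentile of 20 to 30, 53.2% had no Panc327 peak. The share was 23.1% at 50 to 60, where 15 of the 66 regions lay, 3.47% at 70 to 80, where 8 lay, and 1.21% at 80 to 90, where 5 lay. Above 90, 10 of 2646 regions (0.378%) had no Panc327 peak, and the wide chromosome 4 region is 1 of these 10. These shares describe the contrast that the rule used.

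**Figure D3:**
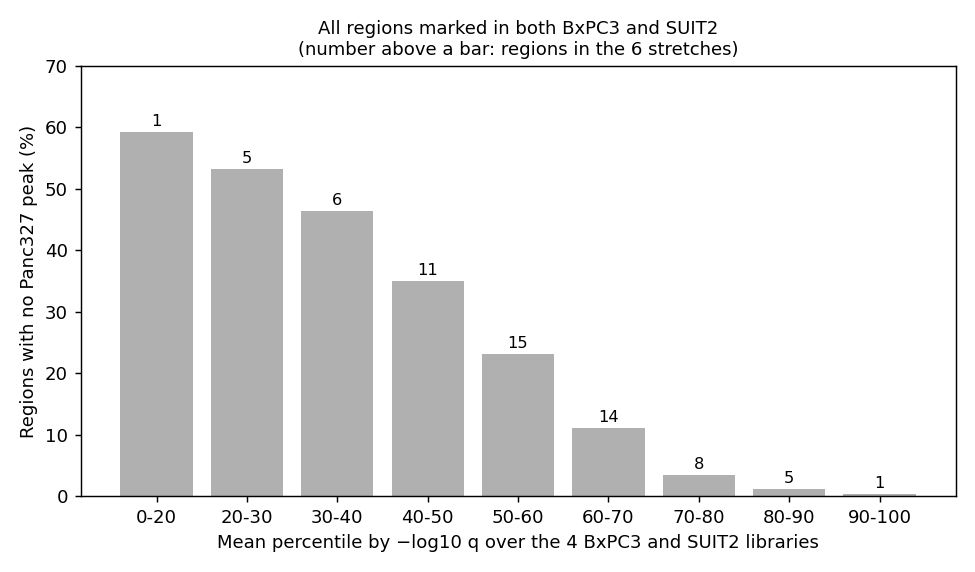
Share of all regions marked in both BxPC3 and SUIT2 that had no Panc327 peak (y axis, percent), by their mean percentile over the 4 libraries (x axis). The share falls from 59.2% below the 20th percentile to 0.378% above the 90th, and the number above each bar counts the regions of the 6 stretches.

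Outside the stretches Panc327 peaks returned at different distances. The interval without any Panc327 peak around each stretch was 0.677 Mb long on chromosome X, 0.731 Mb on the short arm of chromosome 8, 1.33 Mb on chromosome 7, 1.97 Mb on the long arm of chromosome 8, 2.24 Mb on chromosome 5 and 3.02 Mb on chromosome 4. These were not the longest in Panc327: among its 34007 gaps between peaks, the chromosome 4 interval ranked 87 and the chromosome X interval 750 by length. The 6 intervals, 9.97 Mb together, held 144 regions marked in BxPC3 and 117 marked in SUIT2.

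Where the intervals ended, Panc327 mostly shared its peaks with the other lines. Of the 12 regions that bound the intervals, 8 had a peak in all 6 libraries, and 10 had a peak in both Panc327 libraries. Over the series, 39.3% of regions with a Panc327 peak had a peak in all 6. The bounding regions are not a free sample of Panc327 regions, because a run ends at a Panc327 peak, so nothing is read from this difference. On chromosome X the left end came 6.07 kb before the stretch, at a region from 12988302 to 12998415 that all 6 libraries held. Its height was 35.7 and 12.3 times the background in Panc327 replicates 1 and 2, 54.0 and 52.5 in BxPC3 and 185.3 and 186.4 in SUIT2. The right end, 13669622 to 13672954, had heights of 40.5 and 9.46 in Panc327 and was also held by all 6 libraries. Both ends ranked below the middle of the Panc327 lists, at percentiles 44.7 and 31.7 on the left and 48.2 and 13.7 on the right.

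On chromosome 4 the bounding regions were strong in Panc327. The left one, 10458009 to 10459913, had heights of 145.4 and 23.8 in Panc327, 25.3 and 26.4 in BxPC3 and 14.6 and 13.8 in SUIT2. The right one, 13484347 to 13486944, lay 1780 kb beyond the stretch and had heights of 139.2 and 31.5 in Panc327, at percentiles 78.0 and 76.7. Both Panc327 libraries thus had peaks above the middle of their lists on both sides of the bare interval. On chromosome 5 the bounding regions, 57751168 to 57758532 and 59994728 to 59996908, were held by all 6 libraries and ranked lower in Panc327, at percentiles 51.3 and 3.003 on the left and 49.98 and 28.0 on the right.

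On the short arm of chromosome 8 the left bound, 29202680 to 29211038, had a peak in Panc327 replicate 1 alone, with a height of 32.9, whereas both other lines had it at heights of 80.6 to 123.5. The right bound, 29938912 to 29941241, was held by all 6 libraries, with heights of 120.7 and 28.4 in Panc327. On the long arm the left bound, 121820176 to 121825428, had heights of 95.3 and 16.8 in Panc327 and a peak in 1 BxPC3 library, at a height of 11.3. The right bound, 123792064 to 123795845, was held by all 6 libraries, with heights of 74.1 and 21.7 in Panc327. On chromosome 7 the left bound, 45956488 to 45962912, rested on a weak peak of Panc327 replicate 1 with a height of 12.3, at percentile 1.93 of its list. SUIT2 had the same region at heights of 95.7 and 82.5, and BxPC3 had no peak there. The right bound, 47293387 to 47294462, had heights of 128.9 and 26.3 in Panc327, 28.3 and 24.1 in SUIT2 and a peak in 1 BxPC3 library. The heights of Panc327 and SUIT2 overlapped there. By rank Panc327 was the higher, at percentiles 73.5 and 60.2 against 50.1 and 48.6 in SUIT2.

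The flanks of 200 kb on either side held 62 regions, of which 24 were marked in BxPC3, 30 in SUIT2 and 6 in Panc327. All 6 of the Panc327 regions were also marked in both other lines. These 6 were among 10 flank regions with any Panc327 peak. Over the series, 39.3% of regions with a Panc327 peak had a peak in all 6 libraries. The 2 other lines marked 12 flank regions in common, and 3 of those 12 had no Panc327 peak, against 14.7% over the series. Nothing is read from these small counts. The flank peaks covered 45.4 and 55.8 kb in BxPC3, 107.2 and 110.8 kb in SUIT2 and 8.10 and 8.57 kb in Panc327. Of the 6 Panc327 regions, 4 lay beside the chromosome X stretch, 1 beside the short-arm stretch of chromosome 8 and 1 beside the chromosome 4 stretch. The flanks of the chromosome 5 stretch were bare in all lines. The right flank on the short arm of chromosome 8 held 11 and 12 peaks in the BxPC3 libraries and 0 in the other 4, and the right flank on chromosome 4 held 6 and 9 in SUIT2, 0 and 2 in BxPC3 and 0 in Panc327. Because a run ends at a Panc327 peak, the flanks are not independent of the rule near the ends of the stretches.

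Farther out, the pooled peak density of Panc327 was nearer to that of the other lines, and chromosome 7 alone gave 40 of the 89 Panc327 peaks of replicate 1 within 1 Mb and 37 of the 100 of replicate 2. Within 200 kb of the stretches Panc327 had 3.33 peaks per Mb in both libraries, against 13.3 and 17.5 in BxPC3 and 13.8 and 15.0 in SUIT2. At 400 to 600 kb it had 10.8 and 9.17, against 8.75 in both BxPC3 libraries and 12.9 and 17.1 in SUIT2. At 800 to 1000 kb the values were 11.2 and 14.6 in Panc327, 17.5 and 18.8 in BxPC3 and 15.8 and 16.2 in SUIT2, with both Panc327 libraries below the other 4. By stretch the surroundings differed. Within 1 Mb on either side, the Panc327 counts on chromosome 7 were within the 31 to 48 of the other libraries. Around each of the other 5 stretches both Panc327 libraries had fewer peaks than each other library. Chromosome 4 gave 4 and 4 against 8 to 17, chromosome 5 gave 2 and 2 against 3 to 8, and chromosome X gave 7 and 9 against 12 to 17. The short arm of chromosome 8 gave 16 and 26 against 36 to 62, and the long arm 20 to 22 against 29 to 39. Pooled, the Panc327 peaks within 1 Mb made up 0.320 and 0.343% of its lists, against 0.434 to 0.503% in the other 4 libraries. The Panc327 lists were also the shortest, with 27776 and 29139 peaks against 29983 to 38335. These surroundings include the Panc327-free intervals, which ran 1780 kb beyond the chromosome 4 stretch on the right. On chromosome 5 they ran 573.8 and 899.3 kb beyond its left and right ends. The counts and shares within 1 Mb are therefore not independent of the rule.

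**Figure D4:**
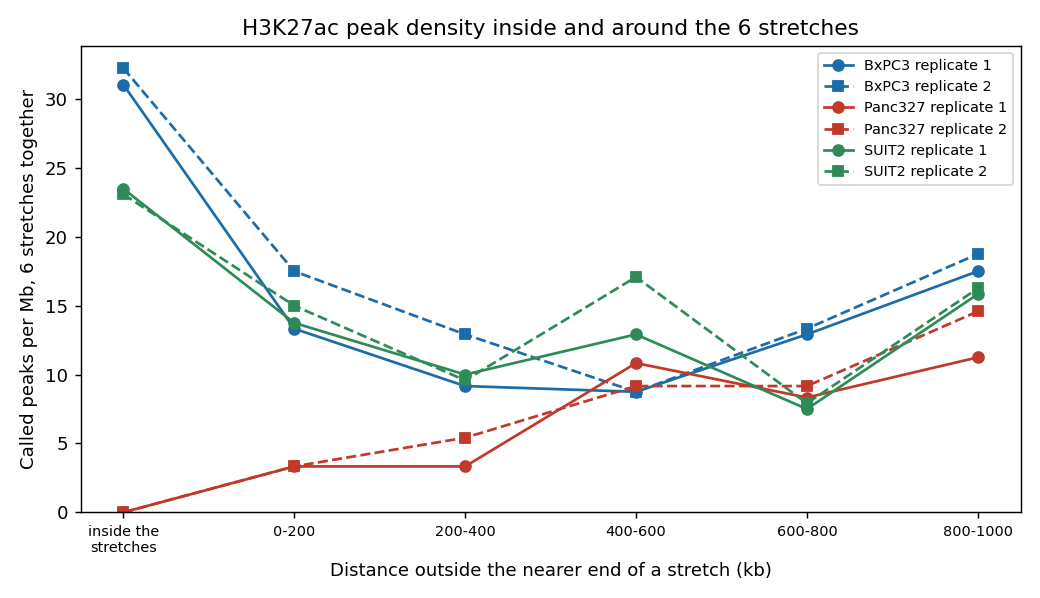
Called peaks per Mb (y axis) inside the 6 stretches (pooled) and in 200 kb steps outside their nearer end (x axis, kb), for each library; circles with solid lines are replicate 1 and squares with dashed lines replicate 2. Panc327 goes from 0 inside to 3.33 in the first step and reaches 10.8 and 9.17 at 400 to 600 kb, among the values of the other lines.

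Each peak also carries the local background that the peak caller took from the input library, given here relative to the genome-wide level. It cannot fall below 1, so a loss of DNA would not show in it, and inside the stretches Panc327 had no peak to carry a value. Within 1 Mb of the stretches, the median background at Panc327 peaks was 1.70 and 1.72 on chromosome 7, 1.25 and 1.40 on the long arm of chromosome 8, and 1.00 and 1.12 on its short arm. It was 1.00 in both libraries on chromosomes X, 5 and 4, where 2 to 9 peaks gave the value. In the stretches themselves, the median background at BxPC3 peaks was 1.53 and 1.25 on chromosome 7 and 1.57 and 1.41 on the long arm of chromosome 8, and at SUIT2 peaks 1.63 and 1.42 on that arm. Elsewhere it was 1.00 to 1.26 in those 4 libraries. The part that the number of DNA copies plays in the missing Panc327 peaks was not tested.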

How the data were processed

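H3K27ac ChIP-seq of 3 lines, 2 libraries each, was used as 6 narrowPeak lists, 1 per library. The submitters' processing notes name MACS2, Bowtie 1.1.1, bcl2fastq 1.8.4 and hg19, with the settings not given in the sources used here. Fold, as deposited, is a ratio: the pile-up of the ChIP over the local background, by the authors. The deposited −log10 p and −log10 q are the peak caller's. The deposited summit position of each peak was also used. Chromosomes 1 to 22 and X were kept.

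Positions are 1-based. Peaks sharing at least 1 bp were merged, without pooling libraries. Pile-up and background were solved from fold and −log10 p as a whole number of reads, as MACS2 is known to compute them; a solution within 0.001 of −log10 p was found for 99.9 to 100% of peaks, depending on the library. BxPC3 pile-ups needed a fitted scale of 0.752 and 0.652 in replicates 1 and 2. List sizes ranged from 27776 to 38335 peaks, and the genome-wide background from 1.46 to 3.61 reads.

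In each stretch the 3 regions with the highest mean percentile, the widest region and the bounding Panc327 regions are named. The members and rules were chosen with earlier results of these data known. Code was tested on simulated data. Alternatives were a −log10 q of at least 20, a peak covering at least 50% of a region, equal peak numbers, leaving out each library, flanks of 500 kb and regions wholly inside a stretch. Computations ran in Python 3.11.15 with pandas 2.3.3, scipy 1.17.1 and numpy 2.4.6; figures came from matplotlib 3.10.9.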

Additional observations from a re-analysis of the deposited data

How the results depend on the processing

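Of 46 recomputed counts and lengths, 41 stayed within 1.5 times the reported count or within the spread of the Panc327 libraries. The 41 include values fixed in advance. Leaving out a Panc327 library cannot change the counts of BxPC3 and SUIT2 regions inside the stretches. Likewise, leaving out a BxPC3 or SUIT2 library cannot change the Panc327-free length. The limit for that length was 0.153 Mb, the SD between the lengths from each Panc327 library alone. Those lengths were also among the 46 values. With peaks counted only where they spanned 50% or more of the region, 34 were marked in both BxPC3 and SUIT2 instead of 66, 48 in SUIT2 alone instead of 31, and 1 in Panc327 in the flanks instead of 6. With flanks of 500 kb, 19 flank regions were marked in Panc327. Leaving out each library in turn gave 66 to 72 regions in both lines, 56 to 73 in BxPC3 alone, 31 to 39 in SUIT2 alone, 6 to 8 in Panc327 in the flanks, and 9.97 to 10.2 Mb of Panc327-free interval, the last without Panc327 replicate 1. At a −log10 q of at least 20, 53 regions were marked in both lines. With equal numbers of peaks from each list, 40 were marked in BxPC3 alone and 40 in SUIT2 alone, instead of 56 and 31. No paired analysis was possible because no result comes from a test. Depth limits what absence means: a Panc327 peak needed at least 14 and 19 reads in replicates 1 and 2.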
